A study of Rattus norvegicus with 9 samples.

Results

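Macrophages are phagocytes that settle in the lung before birth, at first from the yolk sac and fetal liver, and clear dying cells, debris and foreign matter. Signals through the receptor Csf1r keep most of them alive, and surface receptors, lysosomal proteins and the complement protein C1q serve their uptake of material. Alveolar macrophages, the airspace type that carries the scavenger receptor Marco, mature around and after birth. The 10 genes described here, Csf1r, Adgre1, Cd68, Marco, Mrc1, Cd163, C1qa, C1qb, C1qc and Aif1, were taken by symbol as widely used macrophage genes. All 10 were found among the 17465 genes of the deposited table through their NCBI Gene IDs, and 9 of them, all but Marco, passed the filter on low counts.

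The lungs came from fetal Sprague-Dawley rats in 3 groups of 3: untreated control lungs, hypoplastic lungs, which are too small for their age, here secondary to oligohydramnios (too little amniotic fluid), and hypoplastic lungs given AFSC-EVs, the extracellular vesicles released by amniotic fluid stem cells. No group carried a transgene or deletion per the labels, and fetal age, litter, vesicle dose, route and timing were not stated in the sources used here. RNA of whole frozen lungs was sequenced after ribosomal depletion, so each value is an average over every cell of the lung. In such bulk samples, fewer macrophages and less RNA per macrophage cannot be told apart. Library totals ran from 56922779 to 88243188 estimated counts, and the levels below are CPM, estimated counts scaled to a common TMM-normalised library size. Genes of lung epithelium were present in every library. Over 6 genes they summed to 2198 to 4003 CPM in control, 1799 to 1833 CPM in hypoplastic and 2155 to 2406 CPM in treated lungs. Heart muscle genes summed to 130.7 CPM in hypoplastic library 1 and 66.5 CPM in hypoplastic library 2, and to 9.61 CPM or less in the other 7. The red cell list was highest in control library 2, at 11950 CPM against 3583 to 7137 CPM elsewhere. Nothing in the labels says that libraries of a group came from separate litters, so the p-values measure the spread between these lungs.

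Control library 2 and hypoplastic library 2 stood at the ends of nearly every member's range. Hypoplastic library 2 was the highest of the 9 libraries for 9 of the 9 tested members, and control library 2 was the lowest for 8 of 9, the exception being Cd163. Treated library 3 ranked 7 or 8 of 9, counting from the lowest, for each member. Results are therefore also given without control library 2 and hypoplastic library 2, a choice made after the values were seen. Leaving out the lowest control and the highest hypoplastic library must lower the members' difference between these groups. Such results show how far the difference rests on these libraries and are no test of it.

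Promoters of 8 of the 10 members were found in RefSeq's table for assembly GRCr8, and the 250 bases before the gene start of C1qa, C1qb and Adgre1 are shown. The C1q genes had almost the same profile over the libraries. Adgre1 followed it less closely, as did Mrc1 and Cd163. Each is printed 5′ to 3′ on the gene's strand, and capitals mark GAGGAA on either strand (TTCCTC on the other), the core bound by PU.1, the product of Spi1 and a master factor of myeloid cells. C1qa lies at chr5:154419934-154420183 and C1qb at chr5:154407828-154408077, both on the minus strand, and Adgre1 at chr9:2329190-2329439 on the plus strand.
C1qa: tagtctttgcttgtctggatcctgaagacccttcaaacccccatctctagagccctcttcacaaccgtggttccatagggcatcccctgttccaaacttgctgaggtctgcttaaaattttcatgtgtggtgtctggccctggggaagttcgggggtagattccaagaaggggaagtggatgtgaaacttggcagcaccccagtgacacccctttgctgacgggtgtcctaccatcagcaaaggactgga
C1qb: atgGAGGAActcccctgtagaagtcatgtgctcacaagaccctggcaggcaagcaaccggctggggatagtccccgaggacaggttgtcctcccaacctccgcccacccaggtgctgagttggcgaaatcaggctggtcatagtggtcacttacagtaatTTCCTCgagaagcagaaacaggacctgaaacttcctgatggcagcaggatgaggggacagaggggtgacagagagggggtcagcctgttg
Adgre1: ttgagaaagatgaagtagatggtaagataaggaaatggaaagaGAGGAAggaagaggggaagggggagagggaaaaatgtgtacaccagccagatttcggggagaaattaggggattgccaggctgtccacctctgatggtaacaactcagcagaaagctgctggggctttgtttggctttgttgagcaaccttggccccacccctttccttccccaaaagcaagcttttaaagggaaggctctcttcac
GAGGAA was found in 6 of the 8 member promoters (C1qb, Adgre1, Cd68, Marco, Mrc1 and Csf1r) and in 23.2% of all 27457 promoters of that length. These exact letters were not found in the C1qa or Cd163 window, and other forms of the PU.1 site were not searched. The MAF motif TGCTGA, searched on both strands, was in 3 of 8 (C1qa, C1qb and Adgre1) and in 15.2% of all promoters. The AP-1 motif TGANTCA was in that of Cd68 only, against 6.36% of all, and TATAAA on the gene's strand was in that of Marco only, against 8.38%. These matches describe the letters in these windows.

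Csf1r (Gene ID 307403) encodes the receptor for the growth factors CSF1 and IL34. Its levels were 33.3, 8.36 and 37.0 CPM in control libraries 1 to 3, 22.8, 76.1 and 39.6 CPM in the hypoplastic libraries and 30.3, 23.8 and 67.8 CPM in the treated libraries. The 3 groups overlapped throughout, with hypoplastic library 1 below 2 of the 3 controls. The log2 fold change was 0.82 (SE 0.602) in hypoplastic against control lungs, with an adjusted p of 0.603 by edgeR.

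Adgre1 (Gene ID 316137) encodes F4/80, an adhesion receptor on the surface of rodent macrophages and eosinophils. It was at 5.76, 1.18 and 5.91 CPM in control lungs, at 12, 23.9 and 16.7 CPM in hypoplastic lungs and at 8.64, 7.08 and 16.8 CPM in treated lungs. Every hypoplastic and every treated library lay above every control library, while treated library 3 fell within the hypoplastic range. No other tested member had groups without overlap in any comparison. Of all 12966 genes tested, 7.68% were higher in hypoplastic than control lungs without overlap and 4.37% were higher in treated than control lungs. The mean level was 4.28 ± 2.69 CPM (SD, n = 3) in control, 17.5 ± 6.01 CPM (SD, n = 3) in hypoplastic and 10.9 ± 5.24 CPM (SD, n = 3) in treated lungs. Hypoplastic against control lungs gave a log2 fold change of 2.02 (SE 0.541), the largest of the 9 members, with an unadjusted p of 0.00416 and an adjusted p of 0.317 by edgeR. The gene was thus not called. Whether DESeq2 called it turned on the genes that entered: on the whole table its adjusted p was 0.0796, and on the genes that passed the filter it was 0.0111. Over all alternatives the log2 fold change ran from 1.28 to 2.32 and the adjusted p from 0.0111 to 0.857.

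Cd68 (Gene ID 287435) encodes a glycoprotein of the lysosomes of phagocytes. Its levels were 5.47, 1.32 and 5.27 CPM in control, 3.32, 17.7 and 6.32 CPM in hypoplastic and 5.50, 3.78 and 12.5 CPM in treated lungs. The log2 fold change of 1.17 (SE 0.695) between hypoplastic and control lungs had an adjusted p of 0.514 by edgeR, and the groups overlapped.

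Mrc1 (Gene ID 291327) encodes the mannose receptor CD206, found on tissue macrophages and also on some endothelial cells. It was at 22.5, 7.95 and 17.8 CPM in control, 10.3, 36.1 and 24.8 CPM in hypoplastic and 16.4, 12.1 and 24.4 CPM in treated lungs. At 0.56 (SE 0.478, edgeR adjusted p 0.659) its log2 fold change in hypoplastic against control lungs was the smallest of the 9. A microRNA gene, Mir511, lies within Mrc1 in the annotation.

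Marco (Gene ID 367391) was at 0 in 8 libraries and at 1 estimated count, 0.0163 CPM, in hypoplastic library 2. A count of 0 allows a level of up to 0.0359 to 0.0543 CPM in these libraries, taking 3 counts as the limit, which covers counting error only. It failed the filter and was not tested.

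Cd163 (Gene ID 312701) encodes the receptor that takes up haemoglobin bound to haptoglobin, and it was measured at 2.21, 0.482 and 2.52 CPM in control, 1.92, 4.80 and 2.30 CPM in hypoplastic and 1.70, 0.311 and 4.76 CPM in treated lungs. The low treated library rested on 26 estimated counts and the low control library on 27. Between hypoplastic and control lungs the log2 fold change was 0.77 (SE 0.806, edgeR adjusted p 0.730), the least precise of the 9.

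C1qa, C1qb and C1qc (Gene IDs 298566, 29687 and 362634) encode the chains of C1q, which starts the classical complement pathway and tags dying cells for uptake, and they lie next to each other on chromosome 5. C1qa was at 16.9, 4.44 and 21.9 CPM in control, 16.8, 52.7 and 27.0 CPM in hypoplastic and 13.9, 12.2 and 47.2 CPM in treated lungs. C1qb ran from 3.60 to 13.1 CPM in control, from 10.03 to 27.3 CPM in hypoplastic and from 8.18 to 26.2 CPM in treated lungs. C1qc covered 6.47 to 35.6, 23.0 to 75.8 and 16.6 to 68.3 CPM in the same order. The 3 genes put the libraries in nearly one order, with hypoplastic library 2 and treated library 3 at the top. Their log2 fold changes in hypoplastic against control lungs were 1.15 (SE 0.674), 0.95 (SE 0.562) and 0.93 (SE 0.686), with edgeR adjusted p-values of 0.508, 0.509 and 0.603.

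Aif1 (Gene ID 29427) encodes IBA1, an actin-binding protein of macrophages and microglia. It was at 4.57, 3.35 and 5.003 CPM in control, 4.62, 11.5 and 6.10 CPM in hypoplastic and 4.57, 4.89 and 8.71 CPM in treated lungs. Its span between the highest and lowest library, 3.42-fold, was the narrowest of the tested members, and that of Adgre1, 20.3-fold, the widest. The log2 fold change in hypoplastic against control lungs was 0.77 (SE 0.369, edgeR adjusted p 0.426).

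**Figure D1:**
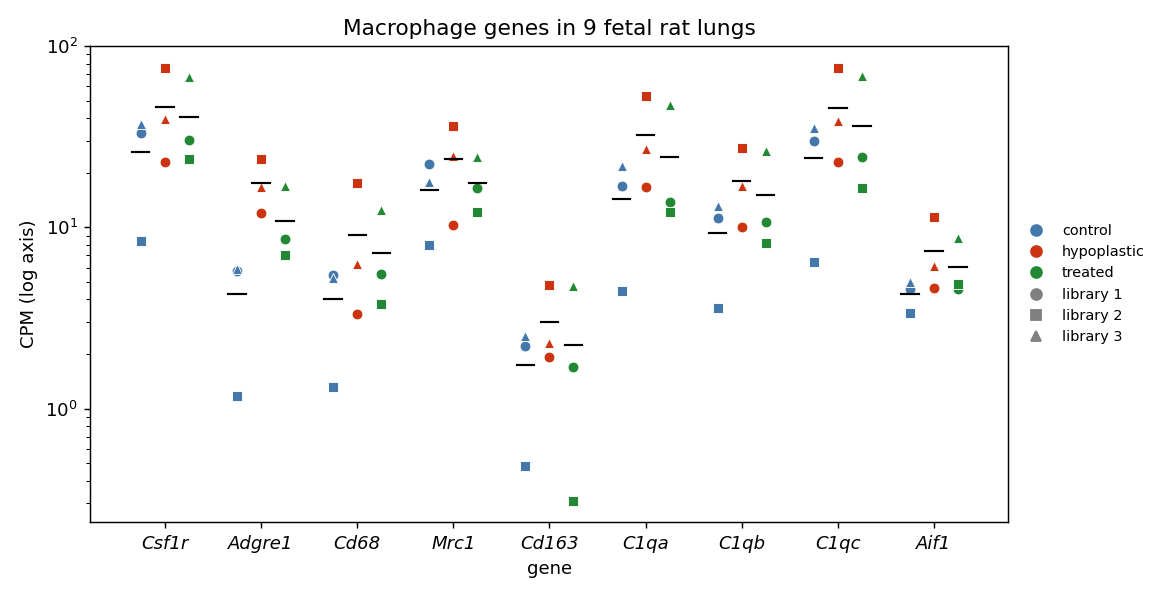
Level of the 9 tested macrophage genes in CPM on a log axis, 1 point per library, with colour for the group, symbol shape for the library number and a black line at the group mean. Only for Adgre1 do the hypoplastic (12 to 23.9 CPM) and treated (7.08 to 16.8 CPM) libraries all lie above the control libraries (1.18 to 5.91 CPM).

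Read as a group in the comparison of hypoplastic with control lungs, 0 of the 9 tested members were called by edgeR, against 1 of 12966 genes (0.00771%). At an unadjusted p under 0.05 there was 1 member, Adgre1, while 12.4% of all genes met that level. The 9 log2 fold changes were all above 0, as were 51.9% of those of all genes, with a median of 0.93 where the median of all genes was 0.01. That median was 0.31 without hypoplastic library 2, 0.57 without control library 2 and -0.09 without both, a fall that the choice of these libraries fixed in advance. With both left out, Cd68, Csf1r, Mrc1, C1qc and Cd163 had values below 0, and Adgre1 was at 1.30 (edgeR adjusted p 0.857).

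In treated against hypoplastic lungs, 0 of 9 members and 0 of 12966 genes (0%) were called by edgeR, and 0 members but 5.56% of all genes had an unadjusted p under 0.05. No member was lower in treated lungs without overlap, which 4.74% of all genes were. The 9 log2 fold changes lay between -0.70 (Adgre1, SE 0.515, edgeR adjusted p 0.940) and -0.19 (Csf1r, SE 0.597, edgeR adjusted p 0.979), with a median of -0.33 beside -0.01 for all genes, of which 51.9% were below 0. Without hypoplastic library 2 the median was 0.16, and without treated library 3 it was -0.97.

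In treated against control lungs, 0 of 9 members and 0 of 12966 genes (0%) were called by edgeR, and 1 member, Adgre1, had an unadjusted p under 0.05 where 4.17% of all genes did. The Adgre1 log2 fold change was 1.33 (SE 0.534), with an unadjusted p of 0.0334 and an adjusted p of 0.998 by edgeR. The others ran from 0.13 (Mrc1) to 0.83 (Cd68), and the median of the 9 was 0.63 beside 0.00 for all genes, of which 50.6% were above 0. Without treated library 3 the median was 0.01, and without control library 2 it was 0.30. The 3 comparisons share libraries and are not independent of each other.

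**Figure D2:**
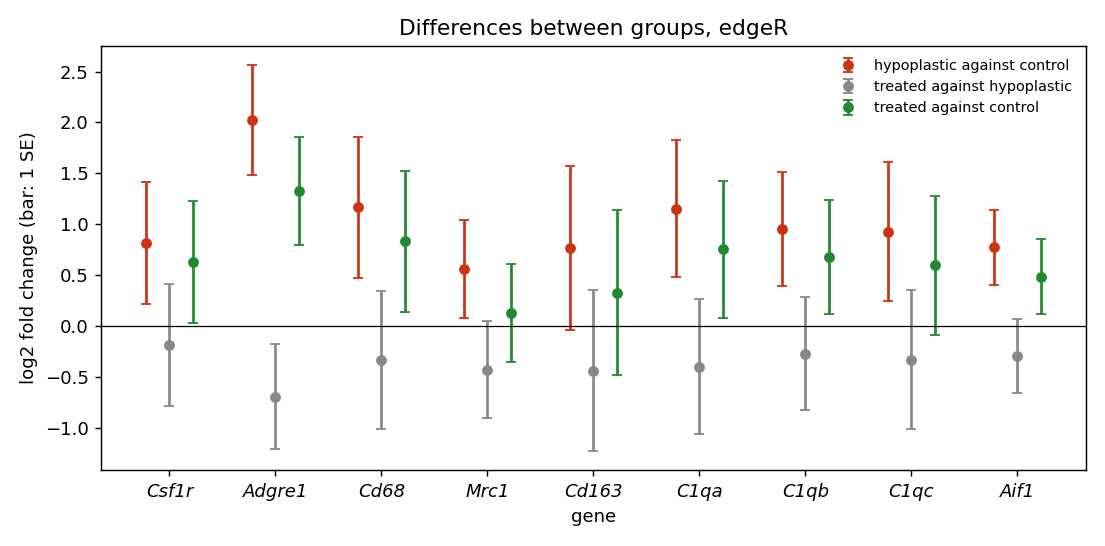
Log2 fold change of each tested macrophage gene in the 3 comparisons, from edgeR, with bars of 1 SE. Points of hypoplastic against control lungs lie between 0.56 and 2.02 and points of treated against hypoplastic lungs between -0.70 and -0.19, and none passed an adjusted p of 0.05.

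The members varied together over the libraries. Over the 9 libraries Pearson's r of log2 CPM between 2 members ran from 0.726 to 0.995 in 36 pairs, with a median of 0.907. The 3 pairs of C1q genes had r of 0.990 to 0.995, the 8 pairs with Adgre1 0.726 to 0.907 and the 28 pairs without Adgre1 0.772 to 0.995. With the C1q genes, Mrc1 had r of 0.880 to 0.911 and Adgre1 0.879 to 0.907. Without control library 2 and hypoplastic library 2 the ranges were 0.968 to 0.984 for the C1q pairs and 0.263 to 0.720 for the Adgre1 pairs. For the pairs without Adgre1 the range was then 0.583 to 0.984. After each group's mean was subtracted, the Adgre1 pairs reached 0.770 to 0.982 and the pairs without Adgre1 0.780 to 0.996. That measure used all 9 libraries, with control library 2 and hypoplastic library 2 among them. The points share library and depth, and the values are descriptions.

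To set each member beside the others within a library, its estimated count was divided by that of Csf1r, Mrc1 or Ptprc, the last a gene of all leukocytes. These 25 ratios were formed after the levels had been seen, are not corrected for gene length and are compared between libraries only. Of the 25, 5 separated hypoplastic from control lungs without overlap, 2 separated treated from hypoplastic lungs and 5 separated treated from control lungs. Among the last, Mrc1 to Ptprc was lower in treated lungs. The ratios share genes, Csf1r and Mrc1 were set against each other both ways, and some separation arises by chance with 3 libraries per group. Shares over all genes were computed only for the patterns given below. The 2 that separated all 3 groups were those of Adgre1 to Csf1r and to Ptprc.

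For Adgre1 the ratio to Csf1r was 0.173, 0.141 and 0.160 in control lungs, 0.526, 0.315 and 0.422 in hypoplastic lungs and 0.285, 0.298 and 0.249 in treated lungs. Every treated library thus lay above every control and below every hypoplastic library. As a ratio of geometric means it was 2.62-fold in hypoplastic over control, 1.76-fold in treated over control and 0.671-fold in treated over hypoplastic lungs. Groups without overlap fix the exact permutation p (two-sided) at 0.1, the smallest that 3 against 3 libraries allow over 20 arrangements. Each difference had that p, which therefore adds nothing to the separation. The same order without overlap held for 2 of 12966 genes (0.0154%), Adgre1 and Pgf, a gene of the VEGF family. Csf1r itself spanned 9.10-fold over the libraries, so a gene that does not follow it tends to overlap in this ratio. The share over all genes is low for that reason too, and none was computed for genes that vary with Csf1r.

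Relative to Ptprc the order was the same, with Adgre1 at 0.549, 0.325 and 0.503 in control, 1.41, 0.995 and 1.07 in hypoplastic and 0.791, 0.826 and 0.831 in treated lungs. It was shared by 3 of 12966 genes (0.0231%), Adgre1, the integrin gene Itgam and Ptafr, the receptor for platelet-activating factor. That share has the same limit as the share for Csf1r. Relative to Mrc1, treated library 3 (0.691) overlapped the hypoplastic libraries (0.662 to 1.17). A fit with the log2 level of Ptprc as a covariate, also added after the values were seen, gave Adgre1 a log2 fold change of 1.28 in hypoplastic against control lungs (unadjusted p 0.000327, edgeR adjusted p 0.228) and -0.49 in treated against hypoplastic lungs (edgeR adjusted p 0.660). In that fit Csf1r, Mrc1, Cd68, C1qb, C1qc and Cd163 had values below 0 in hypoplastic against control lungs, from -0.37 to -0.01. Ptprc was the gene outside the members most like their mean level (r 0.991). As a covariate it thus takes out most of what the members share, which leaves values near 0. No member was called in it, and 4 genes were in hypoplastic against control lungs: Spp1, Krt14, Gpx2 and the eosinophil granule gene Prg2 (log2 fold change 4.05, edgeR adjusted p 0.0194).

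Of the 8 members set against Csf1r, 3 were higher in hypoplastic than control lungs without overlap (Adgre1, C1qa and C1qc), where 0.432% of all genes were. Most genes do not follow Csf1r as the members do, so that share is not one of like genes. The ratio of C1qa was 0.509 to 0.592 in control and 0.683 to 0.736 in hypoplastic lungs, and 0.458 to 0.697 in treated lungs, which overlapped both. For C1qc the control range of 0.774 to 0.962 ended just below the hypoplastic range of 0.975 to 1.01. Cd163 stood apart in 1 library: its ratio was 0.0131 in treated library 2 and 0.0560 to 0.0842 in the other 8. Likewise the Aif1 ratio was 0.401 in control library 2 and 0.129 to 0.206 elsewhere.

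**Figure D3:**
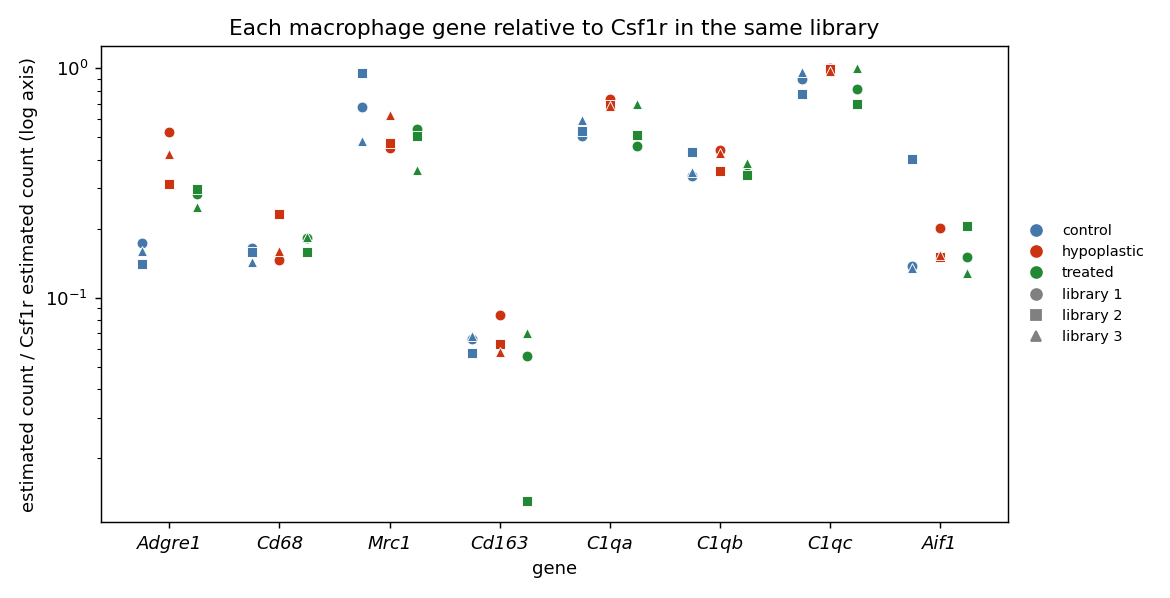
Estimated count of each member divided by that of Csf1r in the same library, on a log axis and not corrected for gene length, with 1 point per library. For Adgre1 the control (0.141 to 0.173), treated (0.249 to 0.298) and hypoplastic (0.315 to 0.526) libraries form 3 ranges without overlap, and the low Cd163 point is treated library 2 (0.0131).

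Genes that work with the members were read from the same fit, and edgeR called none of them in any comparison. DESeq2, on the whole table and on the filtered genes, called 2 of them in hypoplastic against control lungs, Cebpb and Fabp4. Over all genes it called 198 on the whole table and 207 of the 12966 filtered genes. Among ligands and receptors of the colony-stimulating factors, 6 of 7 genes were tested and 6 had a log2 fold change above 0 in hypoplastic against control lungs (median 0.63). That median was 0.07 without hypoplastic library 2 and -0.12 without control library 2 as well. Csf1, which encodes a ligand of Csf1r, was at 25.6, 16.3 and 28.3 CPM in control, 24.8, 60.9 and 32.8 CPM in hypoplastic and 39.1, 19.3 and 31.6 CPM in treated lungs (log2 fold change 0.75, SE 0.362, edgeR adjusted p 0.429). Il34, the other ligand, was at 2.94 CPM in hypoplastic library 2 and at 1.498 CPM or less in the rest. Csf2ra and Csf2rb, the GM-CSF receptor chains, had log2 fold changes of 0.51 and 0.47.

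Of 11 tested transcription factors of macrophages, 7 were above 0 and 4 below in hypoplastic against control lungs, with a median of 0.20 that was -0.05 without hypoplastic library 2. Spi1, which encodes PU.1, was at 6.68, 3.05 and 9.38 CPM in control, 6.33, 24.3 and 15.7 CPM in hypoplastic and 8.54, 6.18 and 15.2 CPM in treated lungs (log2 fold change 1.27, SE 0.536, edgeR adjusted p 0.389). Cebpa and Cebpb, which lung epithelium also expresses, were at -0.62 and -0.61 (edgeR adjusted p 0.325 and 0.317). Id3, at 0.29, was also among the 4 of smallest p.

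Of 27 tested other macrophage genes, 24 were above 0 and 3 below, with a median of 0.91 that was 0.25 without hypoplastic library 2 and -0.02 without control library 2 as well. F13a1, the coagulation factor XIII A chain of tissue macrophages, was at 25.9, 11.2 and 18.8 CPM in control, 30.5, 42.5 and 32.3 CPM in hypoplastic and 19.2, 15.7 and 22.3 CPM in treated lungs. Its hypoplastic libraries lay above all others (log2 fold change 0.91, SE 0.274, edgeR adjusted p 0.323). Itgam, the CD11b chain of the complement receptor on myeloid cells, was at 1.34 to 4.37 CPM in control, 5.61 to 23.1 CPM in hypoplastic and 3.49 to 11.2 CPM in treated lungs (log2 fold change 1.94, SE 0.626, edgeR adjusted p 0.325). Fabp4 and Fcgr1a, a fatty acid carrier and an antibody receptor, had log2 fold changes of 2.36 and 1.53. Siglec1, a sialic acid receptor named here after its values were seen, was at 8.90 CPM in hypoplastic library 2 and 8.81 CPM in treated library 3 and at 0.571 to 1.36 CPM in the other 7.

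Complement genes around C1q were above 0 in 12 of 13 (median 0.99, and 0.24 without hypoplastic library 2). C1r and C1s encode the proteases that C1q activates. C1s was at 113.6 CPM in hypoplastic library 2 against 1.998 to 30.01 CPM elsewhere, and C1r at 232.1 CPM against 16.1 to 91.4 CPM. C5ar1, the receptor for C5a, and C1qbp, a mitochondrial protein that binds C1q, had log2 fold changes of 0.99 and 0.28. In treated against hypoplastic lungs, 13 of 13 were below 0 (median -0.29), and without hypoplastic library 2 the median was 0.16.

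For haemoglobin and haem clearance, where Cd163 acts, 8 of 9 genes were above 0 in hypoplastic against control lungs, with a median of 0.11. Hmox1, which breaks down haem, was at 296.7 CPM in hypoplastic library 2 and 31.7 to 161.9 CPM elsewhere (log2 fold change 0.93, SE 0.551). Ftl1 (ferritin light chain), Hp (haptoglobin) and Lrp1 (a scavenger receptor) had log2 fold changes of 0.47, -0.51 and 0.63.

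Inflammatory effectors, which neutrophils and other cells also make, were above 0 in 9 of 9 and had an unadjusted p under 0.05 in 8, where 12.4% of all genes reached that level. Their median was 2.49, which was 0.68 without hypoplastic library 2. Nos2, the inducible nitric oxide synthase, was at 83.7 CPM in that library and 2.27 to 10.97 CPM in the others. The cytokine Il6 was at 7.05 CPM there and at 0.711 CPM or less elsewhere, and the chemokine Cxcl2 at 14.6 CPM against 0.624 to 1.85 CPM. Tnf was spread more evenly, at 0.980, 0.696 and 1.19 CPM in control, 1.65, 2.99 and 2.10 CPM in hypoplastic and 0.856, 1.63 and 1.04 CPM in treated lungs (log2 fold change 1.21, SE 0.345, edgeR adjusted p 0.317). Of the effectors linked to repair, 5 of 8 were tested and 5 were above 0 (median 1.03, and 0.09 without hypoplastic library 2). Among them Igf1 was at 10.5 to 33.7 CPM in control, 40.9 to 59.4 CPM in hypoplastic and 21.3 to 39.6 CPM in treated lungs (log2 fold change 1.03, SE 0.382, edgeR adjusted p 0.359). Il1rn and Ccl24 had log2 fold changes of 2.33 and 0.39.

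The sum of neutrophil genes was higher in hypoplastic and treated than control lungs without overlap. The sums of monocyte, mast cell, lymphocyte and pan-leukocyte genes overlapped. The summed level of 12 neutrophil genes was 28.3, 24.8 and 19.2 CPM in control, 133.4, 190.3 and 109.8 CPM in hypoplastic and 71.6, 46.2 and 106.2 CPM in treated lungs. Lcn2 alone was at 131.2 CPM in hypoplastic library 2 and at 20.5 CPM in treated library 3. Without Lcn2 the first library falls below the second, so treated and hypoplastic sums then overlap. Of the 11 tested genes, 0 were lower in treated than hypoplastic lungs without overlap, as 4.74% of all genes were. None of the 12 was at 0 in all libraries. Of 11 tested, 11 were above 0 in hypoplastic against control lungs, as were 51.9% of all genes. By edgeR, 8 had an unadjusted p under 0.05, where 12.4% of all genes did. The reported edgeR fit called 0 of the 11, edgeR without treated library 2 called S100a8 and S100a9, and edgeR on 6 libraries called S100a9. DESeq2 called 6 on either input, among 198 genes on the whole table and 207 on the filtered genes. S100a8 ran from 2.71 to 4.57 CPM in control, 19.8 to 39.0 CPM in hypoplastic and 7.82 to 30.1 CPM in treated lungs (log2 fold change 2.94, edgeR adjusted p 0.185). Eosinophils carry F4/80, and a list of 5 eosinophil genes was added after the values were seen. Its sum was 0.2497 to 0.2604 CPM in control, 1.32 to 5.49 CPM in hypoplastic and 0.661 to 1.65 CPM in treated lungs. Most of it was Epx and Prg2, granule protein genes, and the receptors Il5ra and Ccr3 were at or near 0, at 0.0587 CPM or less. Prg2 was at 0.108 to 0.214 CPM in control, 1.01 to 2.62 CPM in hypoplastic and 0.529 to 0.921 CPM in treated lungs. It was not called in the reported edgeR fit (adjusted p 0.185), but was with the Ptprc covariate, as given above, and without hypoplastic library 3. DESeq2 called Prg2 and Epx in hypoplastic against control lungs on either input. In treated against control lungs DESeq2 called Prg2 on the whole table only, and S100a8 and S100a9 on either input. Over all genes it called 16 there on the whole table and 14 on the filtered genes. The part of neutrophils and eosinophils in the Adgre1 values was not tested.

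Monocyte genes summed to 74.6 to 98.3 CPM in control and 88.1 to 182.8 CPM in hypoplastic lungs, with overlap. The 7 pan-leukocyte genes summed to 189.3 to 237.2, 187.2 to 332.1 and 202.4 to 251.8 CPM in control, hypoplastic and treated lungs, and overlapped between the groups. Lymphocyte genes summed to 1.62 CPM or less in every library, with Klrb1 at 0 in all 9. Of 5 liver genes, Alb, Afp and Ttr were at 0.107 CPM or less in every library, and Apoa1 was at 5.65 CPM in control library 2 and at 0.118 CPM or less elsewhere. Of 6 lung epithelium genes, 6 were below 0 in hypoplastic against control lungs (median -0.86, and -0.50 without control library 2), as were 48.1% of all genes. By edgeR, 5 had an unadjusted p under 0.05, where 12.4% of all genes did, and 0 were called. DESeq2 called 2, Sftpc and Sftpb, among 198 genes on the whole table and 207 on the filtered genes. The epithelial sum ran against the members' mean over the 9 libraries (r -0.70). Without control library 2 and hypoplastic library 2 that r was -0.10, and the medians were -0.59 for epithelium and -0.09 for the members. Control library 2, lowest for most members, had the highest epithelial sum, at 4003 CPM. The part of cell makeup in the members' values was not tested.

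**Figure D4:**
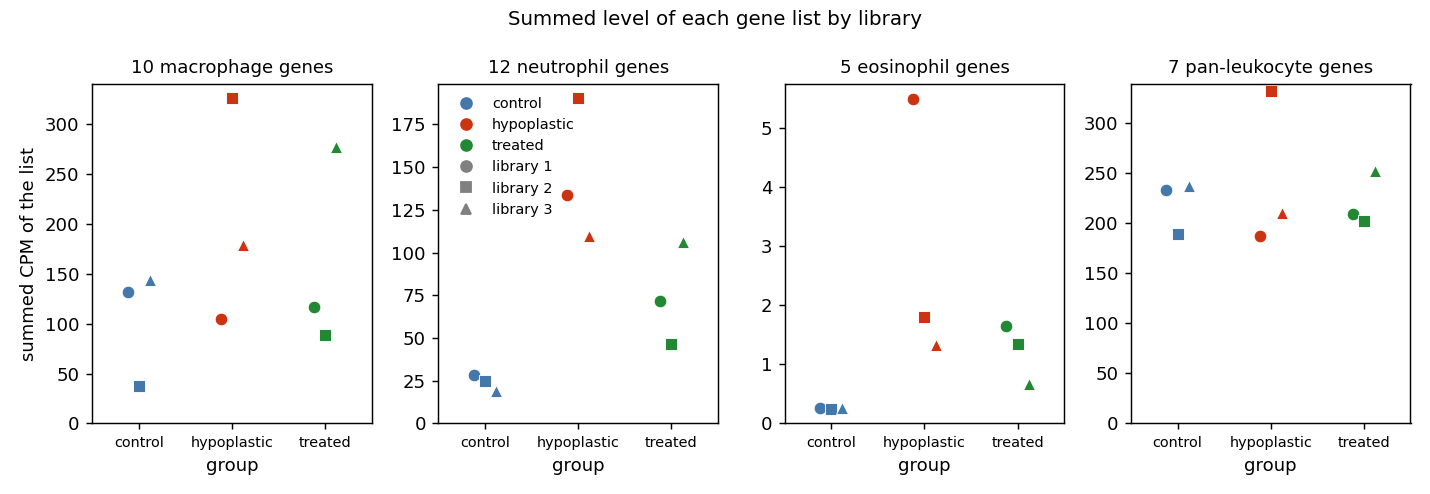
Summed CPM of the 10 macrophage, 12 neutrophil, 5 eosinophil and 7 pan-leukocyte genes in each library, with colour for the group and symbol shape for the library number. The macrophage and pan-leukocyte sums overlap between groups, while the neutrophil sums run from 19.2 to 28.3 CPM in control and from 109.8 to 190.3 CPM in hypoplastic lungs.

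The 8 genes whose profile was most like the mean of the standardized member levels were Ptprc (r 0.991), Themis2 (r 0.988), Tyrobp (r 0.986), Pdgfra (r 0.984), Fads1 (r 0.982), Blnk (r 0.979), Ly96 (r 0.978) and Nckap1l (r 0.975), by Pearson's r over 9 libraries among 11392 genes with a mean of at least 1 CPM. Ptprc encodes CD45 and Tyrobp an adaptor of myeloid receptors. Pdgfra, a receptor of fibroblasts and other mesenchymal cells, was at 120.8, 35.6 and 178.4 CPM in control, 111.1, 333.0 and 163.7 CPM in hypoplastic and 105.1, 78.3 and 263.0 CPM in treated lungs. It thus had the same low and high libraries as the macrophage genes, and without control library 2 and hypoplastic library 2 its r was 0.945.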

How the data were processed

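Expression was measured in 9 fetal rat lungs, grouped by the labels. The authors deposited 1 table of estimated counts for 17465 genes, not normalised between libraries, in which 19.5% of nonzero values were whole, and the sources used here do not state how the fractions arose. The submitters' processing notes name rn 7 and DESeq2. Estimated counts were rounded. Symbols came from RefSeq's GRCr8 table (99.1% of IDs matched), and the coordinates printed are those of GRCr8, not of the counting. Ribosomal and 7SL rows held 14.1% to 19.9% of the counts.

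edgeR 4.0.16 (R 4.3.3; TMM, filterByExpr, quasi-likelihood test) was fitted on all 9 libraries with 6 residual degrees of freedom. P-values were adjusted by Benjamini-Hochberg over 12966 genes, and genes were called under 0.05. SEs are the absolute log2 fold change over the square root of F and are approximate. The script was tested on simulated data. Alternatives were other scalings and filters, DESeq2 1.42.0, limma 3.58.1 voom, 6 libraries per fit, a replicate block, removal of the ribosomal rows and leaving out each library. DESeq2 was first run on the filtered genes. After its counts were seen, its input was changed to the whole table, which had been planned as its defaults, and Adgre1 lost its call. Both runs are given.

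All members were named, with the 4 genes of smallest p and a mean of at least 1 CPM from each companion list, and the 8 genes most like the members. Companion lists held 175 genes with the members, of which 167 were in the table. The members and lists were chosen with earlier results of these data known. The ratios, the Ptprc covariate, the eosinophil list and leaving out 2 libraries together were added after the values were seen.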

Additional observations from a re-analysis of the deposited data

How the results depend on the processing

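Across alternatives edgeR or limma called 0 members in each comparison, and DESeq2 called 0 on the whole table. On the filtered genes DESeq2 called 1, Adgre1, in hypoplastic against control lungs. The input of DESeq2 was changed from the second to the first after the counts were seen. Genes called in hypoplastic against control lungs were 1 in the reported fit, 198 with DESeq2 (207 on the filtered genes), 4 with 6 libraries per fit, 2 with the replicate block, 2 without control 2 and hypoplastic 2 together, 4 with the Ptprc covariate and 0 to 45 with 1 library left out. In treated against hypoplastic lungs they were 0, 15 with DESeq2 (17 filtered) and 0 to 44 with 1 library left out. In treated against control lungs they were 0, 16 with DESeq2 (14 filtered), 1 without both libraries and 0 to 1 with 1 left out. Same-numbered libraries deviated together in 3 of 9 pairs (r over 0.1, range -0.368 to 0.312). Differently numbered pairs ran from -0.535 to 0.501. With 3 libraries per group this cannot decide whether a number marks a shared litter or batch, which the labels do not say. The replicate block called 0 members.

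Directions that turned are given as log2 fold changes, and the cause was not tested. Of 162 alternative values per comparison, 11, 22 and 16 turned. The 11 in hypoplastic against control lungs all came from leaving out both libraries or from the Ptprc covariate, settings added after the values were seen. In hypoplastic against control lungs, leaving out both libraries gave Cd68 -0.16, Csf1r -0.17, Mrc1 -0.20, C1qc -0.0914 and Cd163 -0.17, and the Ptprc covariate gave Cd68 -0.19, Csf1r -0.24, Mrc1 -0.36, C1qb -0.0054, C1qc -0.21 and Cd163 -0.37. In treated against hypoplastic lungs, leaving out both gave Cd68 0.59, Csf1r 0.38, Mrc1 0.00722, C1qa 0.15, C1qb 0.16, C1qc 0.24, Cd163 0.0747 and Aif1 0.18, and the Ptprc covariate gave Cd68 0.16 and Csf1r 0.145. With 1 library left out the ranges were -0.97 to 0.59 for Cd68, -0.77 to 0.38 for Csf1r, -0.79 to 0.0074 for Mrc1, -1.31 to 0.155 for C1qa, -0.94 to 0.16 for C1qb, -1.15 to 0.24 for C1qc, -1.60 to 0.10 for Cd163 and -0.64 to 0.18 for Aif1, the highest without hypoplastic 2 except for Cd163 (without treated 2). In treated against control lungs, leaving out both gave Mrc1 -0.19 and Cd163 -0.0945, voom gave Cd163 -0.20, and the Ptprc covariate gave Cd68 -0.0291, Csf1r -0.10, Mrc1 -0.45, C1qa -0.13, C1qb -0.0538, C1qc -0.28 and Cd163 -0.71. With 1 library left out the ranges were -0.19 to 0.46 for Mrc1, -0.15 to 1.18 for C1qa, -0.23 to 0.99 for C1qc and -0.84 to 0.86 for Cd163. Adgre1 kept its direction under every alternative run. Marco, at 1 estimated count over 9 libraries, is limited by depth. The 26 counts of Cd163 in treated 2 came from the deepest library (88243188 in all).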

Other observations

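Measured by Pearson's r of log2 CPM over the 9 libraries, a likeness added after the values were seen, the genes most like Adgre1 alone were Hap1 (0.983), Grik5 (0.975), Trpm2 (0.964) and Vash2 (0.963). These were other genes than the 8 most like the members' mean. Fads1, a fatty acid desaturase among those 8, ran from 36.2 to 61.4 CPM in control, 61.1 to 88.1 CPM in hypoplastic and 50.5 to 84.1 CPM in treated lungs. Over the whole table, 78 of 11392 genes had r of 0.95 or more with the members' mean. Adgre5, another adhesion receptor of the Adgre family and named after its values were seen, ran from 46.7 to 69.0 CPM in control, 40.2 to 72.7 CPM in hypoplastic and 49.8 to 84.7 CPM in treated lungs.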
